A study of Mus musculus with 786 samples.

Results

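The myeloid branch of mouse bone marrow was followed through 4 sorted populations: the common myeloid progenitor gate (CMP), the pre-granulocyte-macrophage gate (preGM), the pre-megakaryocyte-erythroid gate (preMegE) and the megakaryocyte-erythroid progenitor gate (MEP). They were chosen by name, as 4 of 18 bulk populations in a series of 786 samples that otherwise holds mainly single cells. Each population was 1 library of 1000 cells, so no difference between them could be set against a spread between replicates, and no test was made. The series compared stem cells with the precursors that follow them, and these libraries serve as later steps.

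All cells came from C57BL6 mice of 6 to 8 weeks, with no treatment or altered gene named, and the labels do not say how many mice gave the cells of a library. CMP were ckit+ and Sca1-, carried CD34+, and were IL7R- and CD16/32low/-. MEP shared ckit+, Sca1- and IL7R- with CMP but were CD34- and CD16/32-. For preGM and preMegE the sort used other surface proteins: CD41-, CD105- and CD16/32- on ckit+ Sca1- cells, with CD150- for preGM and CD150+ for preMegE. The CMP and MEP labels name neither CD41 nor CD150, and the preGM and preMegE labels name no CD34, so the gates could share cells.

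Myeloid progenitors are classed by the lineages they can still form. Cells of the granulocyte and monocyte line switch on the transcription factors PU.1 (Spi1), C/EBP alpha (Cebpa) and IRF8, then cytokine receptors and the proteases and myeloperoxidase of the primary granules. The erythroid and megakaryocyte line depends on GATA1, with KLF1 and the enzymes of heme synthesis in red cell precursors and with platelet receptors in megakaryocytes. The classical CMP gate was described as a source of both lines, and later sorting schemes divided it into preGM and preMegE fractions.

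Values are FPKM, fragments divided by transcript length and by the mapped fragments of each library, so they may be compared between genes, and are relative to the rest of their own library. Total FPKM lay between 178079 (CMP) and 214498 (MEP), and the read depth behind it is unknown. Genes at FPKM 1 or more numbered 5761 in CMP, 4157 in preGM, 3624 in preMegE and 3941 in MEP. A small nucleolar RNA, Snora62, took 65444.5 FPKM or 34.4% of the preMegE total, against 575 FPKM in CMP and a listing at 0 in preGM and MEP. A value listed at 0 can be a failed estimate: of 77 rows of ribosomal protein genes, which every cell uses, 4 were at 0 in CMP and 7 in each of the other libraries. In bulk RNA, fewer cells of a type and less RNA per cell cannot be told apart.

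Of the 4 marker genes, Gata1, Cebpa and Mpo separated preGM from both preMegE and MEP. Kit separated preGM from preMegE (log2 ratio -2.60) but not from MEP. Gata1, the master regulator of the erythroid line, was at 14.2 FPKM in CMP, 0.523 in preGM, 44.8 in preMegE and 71.7 in MEP. Cebpa, needed to form granulocyte progenitors, was at 9.55, 20.1, 0.0897 and 0.0432 FPKM in the same order. Mpo, the peroxidase of primary granules, was at 229 FPKM in CMP, 126 in preGM, 0.0867 in preMegE and 0.699 in MEP. Of the 4 libraries, CMP alone had each of these genes well above FPKM 1. Kit, the stem cell factor receptor on which every gate was positive, was present throughout at 246 FPKM in CMP, 105 in preGM, 644 in preMegE and 128 in MEP, so MEP lay nearer to preGM than to preMegE.

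Genes of the surface proteins used in the sort, which are a check and no finding, mostly followed the gates. Slamf1, which encodes CD150, was listed at 0 in preGM and stood at 11.4 FPKM in preMegE, 10.1 in MEP and 0.0990 in CMP. Cd34 was at 286 FPKM in CMP and 10.7 in MEP, as gated, and at 888 in preGM and 6.83 in preMegE, where CD34 was not gated. Itga2b (CD41) reached 6.81 FPKM in CMP and at most 1.31 in the others. Ly6a, which encodes Sca1, was listed at 0 in all 4 libraries, and Il7r was at 0.340 FPKM or less. Eng (CD105) was low in every gate, from 1.75 to 3.69 FPKM, and Fcgr3 and Fcgr2b (CD16/32) were at 2.25 FPKM or less.

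A branch gene was defined as one with FPKM 10 or more in the higher of preGM and preMegE and a ratio of 4 or more between them on FPKM + 1. Of 2272 genes at FPKM 10 or more in either library, 868 (38.2%) were higher in preGM and 577 (25.4%) higher in preMegE, together 63.6%. With Snora62 left out of the library totals and each library set to the same remaining total, the split was 738 and 761, so the excess on the preGM side was not seen under that scaling. Such shares are common among these libraries: 50.4% for CMP against preGM, 59.2% for CMP against preMegE, 59.5% for CMP against MEP, 64.3% for preGM against MEP and 66.5% for preMegE against MEP. The same rule called 32.0% of genes between GMP-7 and GMP-11, 2 gates for granulocyte-macrophage progenitors, and 65.0% between the common lymphoid progenitor gate and its Sca1 high counterpart. These last pairs are not replicates, but they show how many genes pass between libraries of closely related gates.

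Genes of known lineage function divided sharply within that set. Of 55 measured granulocyte-monocyte genes (transcription factors, granule proteins, receptors and monocyte genes), 18 reached FPKM 10 in preGM or preMegE. Of these, 14 were higher in preGM, beside 38.2% of all genes tested, and 2 were higher in preMegE. Of 59 erythroid-megakaryocyte genes (transcription factors, membrane proteins, heme enzymes and platelet genes), 18 reached FPKM 10. None of them was higher in preGM, and 11 were higher in preMegE, beside 25.4% of all genes. The median log2 ratio of preGM over preMegE was 2.78 for the granulocyte-monocyte genes and -1.79 for the erythroid-megakaryocyte genes at FPKM 1 or more in either library, beside 0.60 over all genes.

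**Figure D1:**
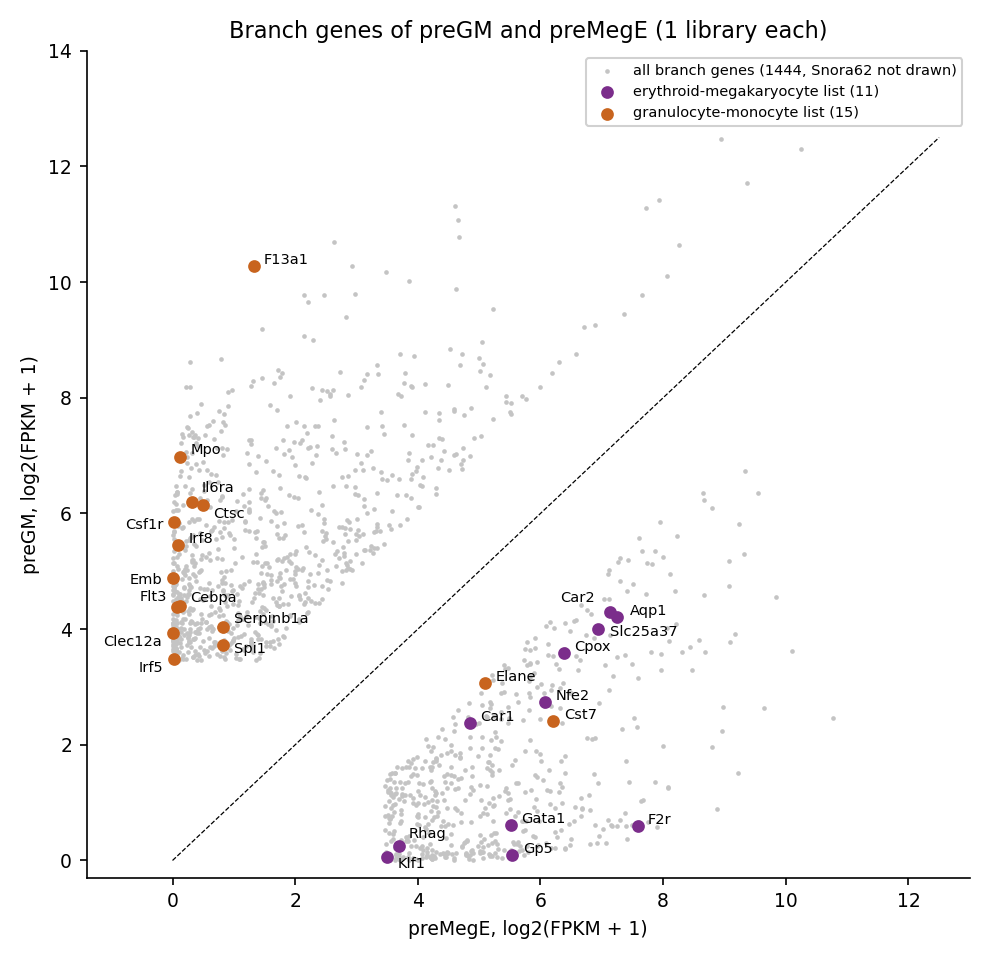
Each point is a gene past the branch rule, with its log2(FPKM + 1) in preMegE on the horizontal axis and in preGM on the vertical axis (1 library each); the dashed line marks equal levels, and Snora62 is not drawn. Of the list genes, 26 of 27 are coloured. Orange granulocyte-monocyte genes lie above the line except Elane and Cst7, and all 11 purple erythroid-megakaryocyte genes lie below it.

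The myeloid regulators past the branch rule were all on the preGM side. Irf8, a factor of monocyte and dendritic cell formation, was at 34.5 FPKM in CMP, 42.6 in preGM, 0.0693 in preMegE and 0.0900 in MEP. Spi1, which encodes PU.1, stood at 10.8 FPKM in CMP, 12.3 in preGM and 0.771 in preMegE and was listed at 0 in MEP. Irf5, a factor of inflammatory cytokine genes, was at 137 FPKM in CMP, 10.1 in preGM, 0.0196 in preMegE and 0.226 in MEP. Together with Cebpa, these are the 4 branch genes among 12 measured myeloid transcription factors, and CMP held all 4, Irf5 above the preGM level and Cebpa at the edge of the rule. A library is said here to hold a branch gene where its FPKM + 1 is within 2-fold of the higher of preGM and preMegE, or above it.

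Receptors of the granulocyte-monocyte line went the same way. Csf1r, the receptor for the macrophage growth factor, was at 38.1 FPKM in CMP, 56.5 in preGM, 0.0196 in preMegE and 1.59 in MEP. Flt3, the receptor for a growth factor of early lymphoid and myeloid precursors, stood at 104 FPKM in CMP, 19.8 in preGM, 0.0522 in preMegE and 13.8 in MEP. CMP exceeded preGM for Flt3 and lay below it for Csf1r. Flt3 was the 1 gene of the 14 that MEP held. Il6ra, part of the interleukin 6 receptor, was the exception for CMP, at 4.15 FPKM against 72.2 in preGM, 0.242 in preMegE and 0.0499 in MEP.

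Granule genes did not follow 1 pattern. Ctsc, the protease that activates the granule serine proteases, was higher in preGM (69.5 FPKM) than in CMP (7.53), preMegE (0.408) and MEP (0.0589). Elane, which encodes neutrophil elastase, was at 89.8 FPKM in CMP, 7.36 in preGM, 33.3 in preMegE and 0.200 in MEP, so it was a preMegE branch gene. Cst7, a protease inhibitor of granules, was likewise higher in preMegE (73.0 FPKM) than in CMP (13.5), preGM (4.29) and MEP (0.0373). Both genes ran against their list, while other protease genes of the same granules did not: Prtn3 was at 22.5 FPKM in CMP, 6.21 in preGM, 0.0512 in preMegE and 0.0370 in MEP. Ctsg stood at 46.8 FPKM in CMP and 5.66 in preGM, was listed at 0 in preMegE and reached 0.248 in MEP. Prtn3 and Ctsg missed the branch rule because preGM lay under FPKM 10. Over the whole list of 15 granule genes, 13 reached FPKM 1 in CMP, 10 in preGM, 3 in preMegE and 0 in MEP. Of all 18855 genes, 5761, 4157, 3624 and 3941 did so in the same order.

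F13a1, the coagulation factor XIII subunit that monocytes and macrophages make, had the largest ratio of all genes higher in preGM. It stood at 58.6 FPKM in CMP, 1238 in preGM, 1.50 in preMegE and 0.0285 in MEP. CMP did not hold it, although its level there was above that of most genes. In preGM, but not in the other libraries, F13a1 carried most of the summed level of the 14 monocyte and dendritic genes. That sum was 165 FPKM in CMP, 1355 in preGM, 23.8 in preMegE and 1.71 in MEP. Genes of antigen presentation on that list were low, with H2-Aa at 4.27 FPKM in preGM and 0.105 in CMP and listed at 0 in preMegE and MEP.

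The erythroid regulators split between preMegE and MEP: of 10 measured, 3 were past the 4-fold rule for preMegE over MEP and 1 for MEP over preMegE. Klf1, which activates globin and membrane genes of red cells, was at 1.98 FPKM in CMP, 0.0388 in preGM, 10.3 in preMegE and 12.3 in MEP. Nfe2, a factor of platelet and globin genes, stood at 16.1 FPKM in CMP, 5.69 in preGM, 66.7 in preMegE and 0.790 in MEP. Gata2, which acts before GATA1 in the same line, was at 223 FPKM in CMP, 96.5 in preGM, 367 in preMegE and 21.3 in MEP and missed the 4-fold rule. Tal1, a partner of GATA1, was highest in MEP at 45.9 FPKM, with 11.6 in CMP, 1.43 in preGM and 1.41 in preMegE. Gata1 and Klf1 thus differed by less than 2-fold between preMegE and MEP. The 2 libraries differed in Tal1, which was higher in MEP, and in Gata2 and Nfe2, which were higher in preMegE.

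Most branch genes of the red cell membrane and of heme synthesis were highest in MEP. Car2, a carbonic anhydrase, was at 67.1 FPKM in CMP, 18.6 in preGM, 139 in preMegE and 1147 in MEP. Aqp1, a water channel of red cells, was at 52.3, 17.4, 151 and 785 FPKM in the same order. Cpox, an enzyme of heme synthesis, stood at 6.29 FPKM in CMP, 11.0 in preGM, 82.2 in preMegE and 639 in MEP. Each of these was several-fold higher in MEP than in preMegE, the gate that defined the branch. Rhag, which encodes a red cell ammonia channel, was at 0.0588 FPKM in CMP, 0.190 in preGM, 11.9 in preMegE and 40.7 in MEP. Car1, another carbonic anhydrase, was at 2.35 FPKM in CMP, 4.17 in preGM, 27.8 in preMegE and 53.1 in MEP. Slc25a37, the mitochondrial iron importer, broke the pattern at 3.16 FPKM in CMP, 15.0 in preGM, 121 in preMegE and 17.8 in MEP. Ermap, a red cell adhesion protein that missed the 4-fold rule, was low in CMP alone, at 0.615 FPKM against 57.3 in preGM, 134 in preMegE and 39.4 in MEP.

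Platelet and megakaryocyte genes went apart from the red cell genes. F2r, the thrombin receptor, was at 68.1 FPKM in CMP, 0.519 in preGM, 191 in preMegE and 0.0845 in MEP. Gp5, a subunit of the platelet receptor for von Willebrand factor, was at 7.26 FPKM in CMP, 0.0632 in preGM, 45.6 in preMegE and 0.294 in MEP. Fli1, a regulator of megakaryocyte genes, stood at 604 FPKM in CMP, 36.3 in preGM, 18.7 in preMegE and 7.15 in MEP. These genes were high in CMP or preMegE and low in MEP. The 21 measured genes of the list summed to 729 FPKM in CMP, 62.7 in preGM, 272 in preMegE and 8.38 in MEP. Those listed at 0 numbered 5 in CMP, 12 in preGM, 11 in preMegE and 13 in MEP, where 10545 of all 18855 genes were at 0. FPKM 1 was reached by 10, 3, 7 and 1 of the 21 in the same order. Fli1 gave 604 of the 729 in CMP and 18.7 of the 272 in preMegE, so the order of these 2 sums rests on it. The median log2 ratio of CMP over preMegE was 1.05 for the list, beside 1.17 for all genes. Single markers differed: Itgb3 was at 8.56 FPKM in CMP and listed at 0 in the others, and Pf4 was at 1.03 in CMP and listed at 0 in the others. Gp5 and F2r, by contrast, were higher in preMegE than in CMP. Of the list, 4 genes reached FPKM 10 in preMegE, 3 in CMP, 2 in preGM and 0 in MEP. The label of MEP names megakaryocytes. In this 1 library erythroid genes reached FPKM 10, but no gene of the megakaryocyte list did, beside 8.80% of all genes.

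**Figure D2:**
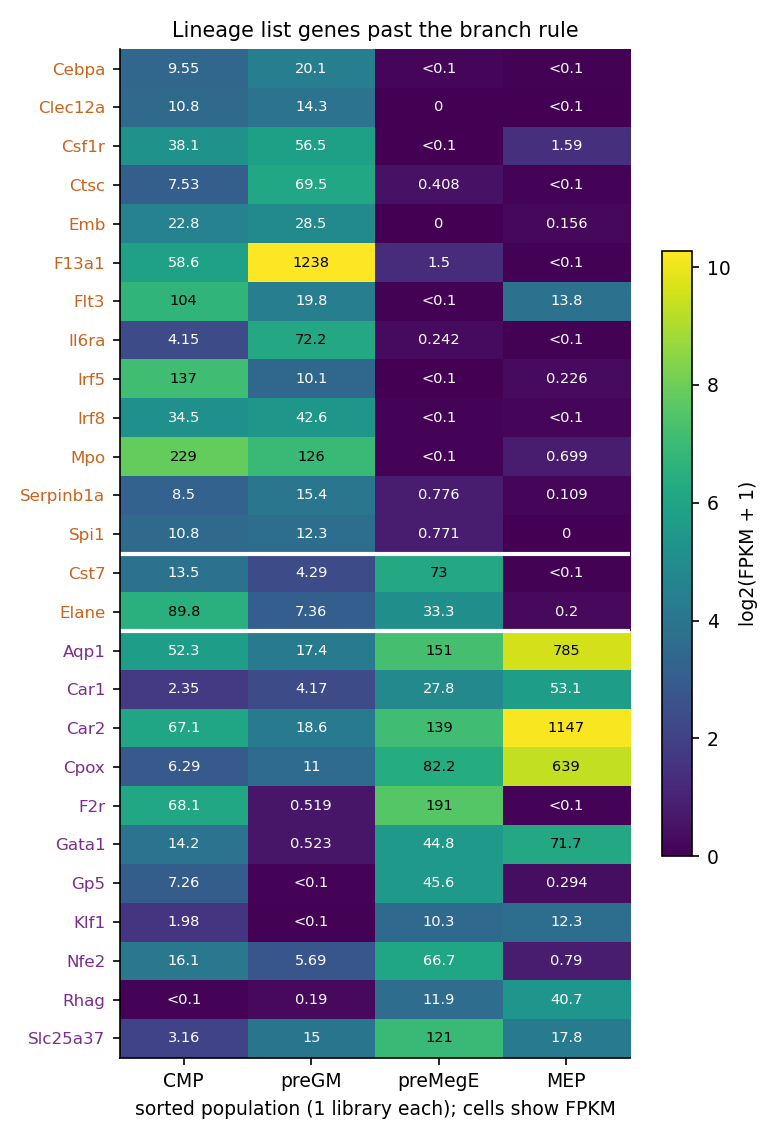
Rows are 26 of the 27 list genes past the branch rule, columns the 4 libraries; colour gives log2(FPKM + 1) and the printed number is FPKM. Orange names are granulocyte-monocyte genes (13 higher in preGM above the first white line, then Cst7 and Elane, higher in preMegE). Purple names are erythroid-megakaryocyte genes. In the upper block CMP is near preGM for most genes, with Ctsc, F13a1 and Il6ra lower and Irf5 and Flt3 higher. MEP is dark there except for Flt3.

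Read across the 2 lists, CMP held 11 of the 14 granulocyte-monocyte genes of the preGM side, all but Ctsc, F13a1 and Il6ra, and MEP held 1, beside 37.0% and 23.6% of all 868 preGM genes. Of the 11 erythroid-megakaryocyte genes of the preMegE side, CMP held 0 and MEP held 7 (Aqp1, Car1, Car2, Cpox, Gata1, Klf1 and Rhag), beside 27.7% and 23.4% of all 577 preMegE genes. CMP was not without the erythroid genes: within 4-fold in place of 2-fold it held 6 of the 11, beside 43.8% of all preMegE genes, and under the other scalings tried it held 1 to 3 of 11 to 17 such genes. On a scale where 0 is the preMegE level and 1 the preGM level of log2(FPKM + 1), the median of CMP was 0.92 over the 14 genes and 0.56 over the 11. The medians of MEP were 0.01 and -0.14, the latter past preMegE. CMP thus stood near preGM for the granulocyte-monocyte genes and between the gates for the others.

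CMP and MEP can be compared with each other without the preGM and preMegE levels, though the FPKM minimum then chooses genes by CMP and MEP themselves. Over all 2852 genes at FPKM 10 or more in either, 37.4% were 4-fold or more higher in CMP and 22.1% in MEP. Of the 55 granulocyte-monocyte genes, 17 reached FPKM 10 in CMP or MEP, and all 17 were higher in CMP by that rule. Of the 59 erythroid-megakaryocyte genes, 22 reached FPKM 10, of which 7 were higher in CMP and 11 in MEP. The FPKM minimum itself set most of the first result, since 17 granulocyte-monocyte genes reached FPKM 10 in CMP and 1 in MEP. Of the erythroid-megakaryocyte genes, 13 reached it in CMP and 15 in MEP, and that list went both ways. The median log2 ratio of CMP over MEP was 3.05 for the granulocyte-monocyte genes, -0.57 for the erythroid-megakaryocyte genes and 0.98 for all genes at FPKM 1 or more in either library. The order of the libraries also differed by list. Of all 3547 genes at FPKM 10 in any of the 4 libraries, 32.4% were highest in CMP, 23.2% in preGM, 16.2% in preMegE and 28.2% in MEP. Of 24 erythroid-megakaryocyte genes so chosen, 11 were highest in MEP, 7 in preMegE, 5 in CMP and 1 in preGM. Of 21 granulocyte-monocyte genes, 10 were highest in CMP, 10 in preGM, 1 in preMegE and 0 in MEP.

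Over the full set of branch genes the placement was weaker than over the lineage lists. CMP held 321 (37.0%) of the 868 preGM genes and 160 (27.7%) of the 577 preMegE genes. MEP held 205 (23.6%) and 135 (23.4%), so its share was about the same on either side. The 2 gates did not complement each other. Neither gate held 465 (53.6%) of the preGM genes or 347 (60.1%) of the preMegE genes. Both held 123 of the preGM and 65 of the preMegE genes. The median position of CMP was 0.55 over the preGM genes and 0.64 over the preMegE genes, between the 2 levels for either set. The median of MEP was 0.12 over the preGM genes, near preMegE, and 0.91 over the preMegE genes, near preGM. For either set MEP thus lay near the gate in which the genes were low. The multipotent gates MPP2 (0.105 and 0.885) and MPP3 (0.129 and 1.011) did so too. GMP-7 (0.607 and 0.574), GMP-11 (0.578 and 0.602) and PreCFU-E (0.45 and 0.525) lay between, as CMP did. The branch rule picks genes high in 1 library, which by itself draws a further library toward the low gate. These medians therefore place neither CMP nor MEP.

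**Figure D3:**
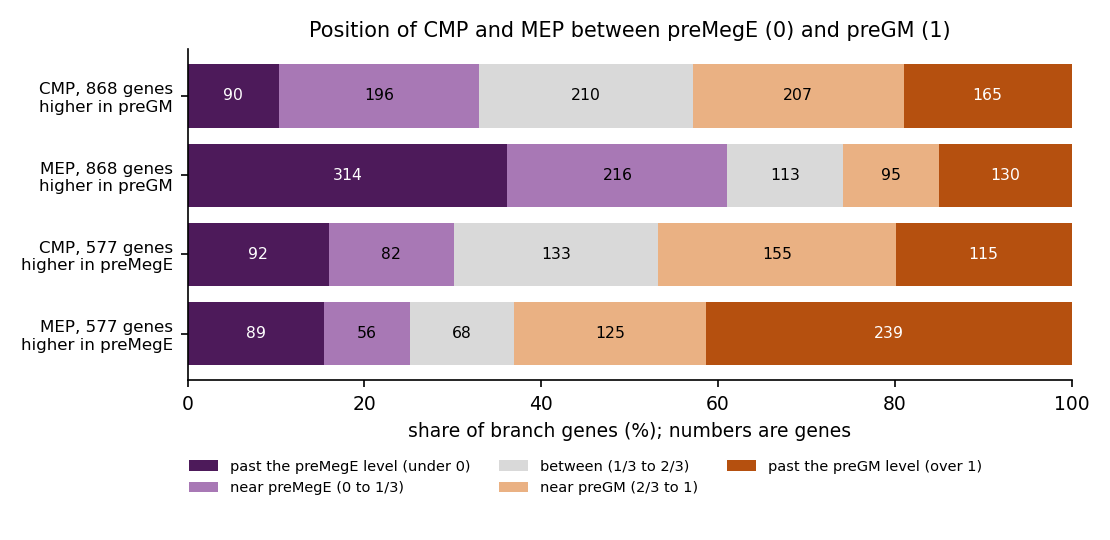
Bars give the share of branch genes by position of CMP or MEP on a scale from preMegE (0) to preGM (1) of log2(FPKM + 1), with the number of genes printed in each segment. For the 577 genes higher in preMegE, MEP had 239 past the preGM level and 89 past the preMegE level; CMP was spread over all 5 classes.

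On the preGM side, the branch genes that CMP held at the highest level were Arhgdib (4113 FPKM in CMP, 5698 in preGM, 489 in preMegE and 90.0 in MEP), Tpm3, Rplp1, Aplp2 and Mlec. The corresponding preMegE genes were Hmbox1, Tor1a, Mcl1, Meis1 and Grb2. Meis1, a homeodomain factor of stem cells, was at 220 FPKM in CMP, 2.14 in preGM, 36.0 in preMegE and 1.59 in MEP. Mcl1, a survival protein, stood at 258 FPKM in CMP, 19.2 in preGM, 108 in preMegE and 428 in MEP. CMP was farthest below preGM for Gab1, an adaptor of receptor signalling (0.396 against 583 FPKM), followed by Ncoa1, Trak2, Hrh2 and Cblb. It was farthest below preMegE for Rps15a, a ribosomal protein (1.15 against 1741 FPKM), followed by Abcb4, Pcyt1b, Zbtb44 and 2810004N23Rik.

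Among the preMegE genes that MEP held, the 5 highest were Ppp1r9b, Car2, Fto, Mta3 and Aqp1. Mta3, a subunit of a chromatin remodelling complex, was at 95.6 FPKM in CMP, 1.26 in preGM, 78.0 in preMegE and 834 in MEP. Among the preGM genes it held they were Lrrc59, Sdhc, Rplp1, Eif4ebp2 and Srsf2. Sdhc, a subunit of succinate dehydrogenase, was at 1278 FPKM in CMP, 2746 in preGM, 243 in preMegE and 3720 in MEP, so preMegE was the low library. The preGM genes farthest from the MEP level were Stim1, F13a1, Hrh2, Susd6 and Gab1, and the preMegE genes were Snora62, Birc3, Rps15a, Pofut2 and Pdpr. Stim1, the calcium sensor of the endoplasmic reticulum, was at 333 FPKM in CMP, 1663 in preGM, 5.18 in preMegE and 0.107 in MEP.

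The genes with the largest ratios between preGM and preMegE were mostly outside the lineage lists. After F13a1, those higher in preGM were Bcl2l1, Stim1, Satb1, Nfam1, Cnksr3, Gab1, Cnot9, Arhgap18 and Gemin8. Satb1, a chromatin organiser of lymphoid cells, was at 27.4 FPKM in CMP, 289 in preGM, 0.160 in preMegE and 2.80 in MEP. Nfam1, an immune receptor that signals in leukocytes, stood at 115 FPKM in CMP, 290 in preGM, 0.213 in preMegE and 0.534 in MEP. After Snora62 and Rps15a, those higher in preMegE were Prrc1, Abcb4, Srpr, Pdcd7, Zbtb44, N4bp2, F2r and Zbtb2. Several were high in 1 library only: Zbtb44, a zinc finger protein, was at 169 FPKM in preMegE and at 1.28 or less in the others. At the edge of the rule, Ipmk, Bptf and Parvg were just inside on the preGM side, with log2 ratios from 2.00 to 2.02, and Znrd1, Arfgap2 and Nfkb2 were just outside. On the preMegE side Rab1b, Txn2 and Gatd1 were just inside, with log2 ratios from -2.02 to -2.00, and Psat1, Polr1b and Kmt5b just outside.

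CMP and MEP also had genes at levels well above, or well below, both preGM and preMegE. CMP was 4-fold or more above both for 632 (28.9%) of 2184 genes at FPKM 10 or more, and below both for 55 (7.62%) of 722 genes at FPKM 10 or more in both. MEP was above both for 608 (36.6%) of 1659 genes and below both for 162 (22.4%) of 722. The 5 genes farthest above in CMP were Dio2, S100a1, Peak1, Rad54l and Depdc1b. Dio2, the enzyme that activates thyroid hormone, was at 862 FPKM in CMP, 0.0694 in preGM, 0.0573 in preMegE and 0.386 in MEP. Hoxa7, a homeobox gene of early progenitors, was also among them, at 103 FPKM in CMP, 0.0145 in preGM and 0.0305 in MEP, and was listed at 0 in preMegE. The genes farthest below in CMP were Mtfr1, Tmem109, Ermap, Slc38a5 and Fam234b.

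In MEP the 5 genes farthest above were Tmem135, Pklr, Grk5, Foxo3 and Cdr2. Pklr, the pyruvate kinase of red cells and liver, was at 18.6 FPKM in CMP, 0.906 in preGM, 0.748 in preMegE and 1024 in MEP. Foxo3, a transcription factor that protects red cell precursors from oxidative damage, was at 528 FPKM in MEP and at 0.0947 or less in the other libraries. Erythroid list genes above both gates were Tal1, Cldn13, Car2, Blvrb, Cpox, Uros and Aqp1, of which Car2, Cpox and Aqp1 were also preMegE branch genes. Cldn13 was listed at 0 in CMP, preGM and preMegE and stood at 10.3 FPKM in MEP. The genes farthest below in MEP were Uri1, Septin6, Ap1g1, Sp100 and Sh3kbp1. Gata2, Gypc, Plek and Xbp1 were the list members below both gates, and Gypc, which encodes the red cell surface protein glycophorin C, was at 61.0 FPKM in CMP, 56.1 in preGM, 56.5 in preMegE and 4.57 in MEP.

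Other programs differed between the libraries too. The 19 genes of the G2/M phase of cell division summed to 252 FPKM in CMP, 419 in preGM, 66.8 in preMegE and 1151 in MEP, where Plk1 alone gave 860. Of the 7 that reached FPKM 10 in preGM or preMegE, 5 were preGM branch genes, beside 38.2% of all genes. Plk1, a kinase of mitosis, was at 82.4 FPKM in CMP, 195 in preGM and 19.4 in preMegE. Without it the sums were 169 FPKM in CMP, 224 in preGM, 47.4 in preMegE and 291 in MEP. S phase genes were closer together, with sums of 1253 FPKM in CMP, 1041 in preGM, 627 in preMegE and 1095 in MEP. preMegE had the lowest sum for both phases, but Snora62 took part of its total. With Snora62 left out of the totals, the median log2 ratio of preGM over preMegE went from 0.551 to 0.046 for S phase genes. For G2/M genes it went from 1.72 to 1.54. Immediate early genes, which respond within minutes to a stimulus or to cell handling, summed to 101 FPKM in CMP, 5.18 in preGM, 86.8 in preMegE and 34.0 in MEP. Fos was at 13.2 FPKM in CMP, 4.37 in preGM, 51.5 in preMegE and 0.366 in MEP, and the part of handling in the branch genes was not tested. Ribosomal protein genes of the list summed to 1864 FPKM in CMP, 661 in preGM, 329 in preMegE and 1801 in MEP, and Rplp1 gave most of the CMP, preGM and MEP sums. Without Rplp1 they were 695, 227, 234 and 438 FPKM. The median log2 ratio of these genes was 0.25 for MEP over preGM and 0.18 for MEP over preMegE, and was -0.02 and -0.24 with libraries scaled to the same median ratio, so no direction holds for MEP here.

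Markers of other cells were checked in each library. Genes of mature neutrophils (10), macrophages (11), endothelium and stroma (10) and T and NK cells (9) summed to at most 5.18 FPKM per list and library. Ms4a1 and Pax5, which mark B cells, were listed at 0 in all 4 libraries, and so were Cd3d, Cd3e and Cd3g of T cells. The B and plasma cell list reached 146 FPKM in preGM, where Xbp1, a factor also used in myeloid cells, gave 145. In CMP the list summed to 70.6 FPKM, of which its highest gene gave 66.8, and 2 genes reached FPKM 1. Apart from the B and plasma cell list, the lists of mature blood cells were thus low. The part of Xbp1 and other listed genes in the branch genes was not tested. Mast cell and basophil genes (11 measured) summed to 8.71 FPKM in CMP and to 1.17 or less in the others, with Hdc at 5.57 FPKM in CMP. Stem cell genes on a list of 18 summed to 391 FPKM in CMP, 42.0 in preGM, 197 in preMegE and 182 in MEP. Bcl11a, a factor that represses fetal globin genes, gave 170 of the 182 in MEP, and without it the sums were 369, 18.9, 143 and 12.6 FPKM. The median log2 ratio of MEP over preMegE for the list was -1.48. Erg, a factor of stem cells and megakaryocytes, was at 1.98 FPKM in CMP, 1.96 in preGM, 69.5 in preMegE and 0.0395 in MEP. Lymphoid genes were low apart from Satb1.

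The branch genes were next followed in the gates before and after. Over the 868 preGM genes, the 2 GMP libraries held 41.2% (GMP-7) and 41.9% (GMP-11), more than CMP and MEP. The multipotent gates MPP2, MPP3 and MPP4 held 20.5%, 23.2% and 26.3%. PreCFU-E and CFU-E, gates for erythroid precursors, held 30.4% and 30.9%, and the megakaryocyte progenitor gate MKP held 24.3%. The GMP gates thus held the largest share, but they also had the most genes at FPKM 10. These numbered 2440 in GMP-7 and 2295 in GMP-11, against 2184 in CMP, 2142 in PreCFU-E and 1659 in MEP. Over the 577 preMegE genes the share held was highest in PreCFU-E at 34.0%, followed by 28.9% in GMP-7, 28.8% in CFU-E, 27.7% in CMP and 27.0% in GMP-11. It was 25.1% in MKP and 23.4% in MEP, so MEP held fewer of these genes than the GMP gates did. The part of the number of detected genes in these shares was not tested.

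Lineage genes were also taken from the later gates, so that none of the 4 libraries chose them. The branch rule was first applied to GMP-7 and PreCFU-E. Of 805 genes higher in GMP-7, 45.1% reached FPKM 10 in CMP, 32.0% in preGM, 20.5% in preMegE and 24.2% in MEP. Of 577 genes higher in PreCFU-E, 36.0% did in CMP, 25.1% in preGM, 27.0% in preMegE and 34.3% in MEP. Over all genes of the table the shares were 11.6% in CMP, 8.77% in preGM, 7.11% in preMegE and 8.80% in MEP. CMP thus had the highest share for either set, as it had over all genes, and preMegE the lowest for the GMP-7 genes.

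A narrower rule was added after seeing the data. Its GMP genes had FPKM 10 or more in both GMP-7 and GMP-11 and were 4-fold or more above PreCFU-E and CFU-E, and its CFU-E genes were the reverse. Of 224 GMP genes, 55.8% reached FPKM 10 in CMP, 41.1% in preGM, 18.8% in preMegE and 14.3% in MEP. Of 90 CFU-E genes, 41.1% did so in CMP, 38.9% in preGM, 46.7% in preMegE and 57.8% in MEP. Under this rule MEP had the lowest share of GMP genes and the highest of CFU-E genes, and neither held under the wider rule. The median GMP gene stood at 13.0 FPKM in CMP, 5.93 in preGM, 0.838 in preMegE and 0.264 in MEP. The median CFU-E gene stood at 5.65 FPKM in CMP, 2.57 in preGM, 7.54 in preMegE and 17.8 in MEP. Of 165 GMP genes at FPKM 10 in any of the 4 libraries, 43.6% were highest in CMP and 33.3% in preGM, beside 32.4% and 23.2% of all genes. Of 74 CFU-E genes, 45.9% were highest in MEP, beside 28.2% of all genes.

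**Figure D4:**
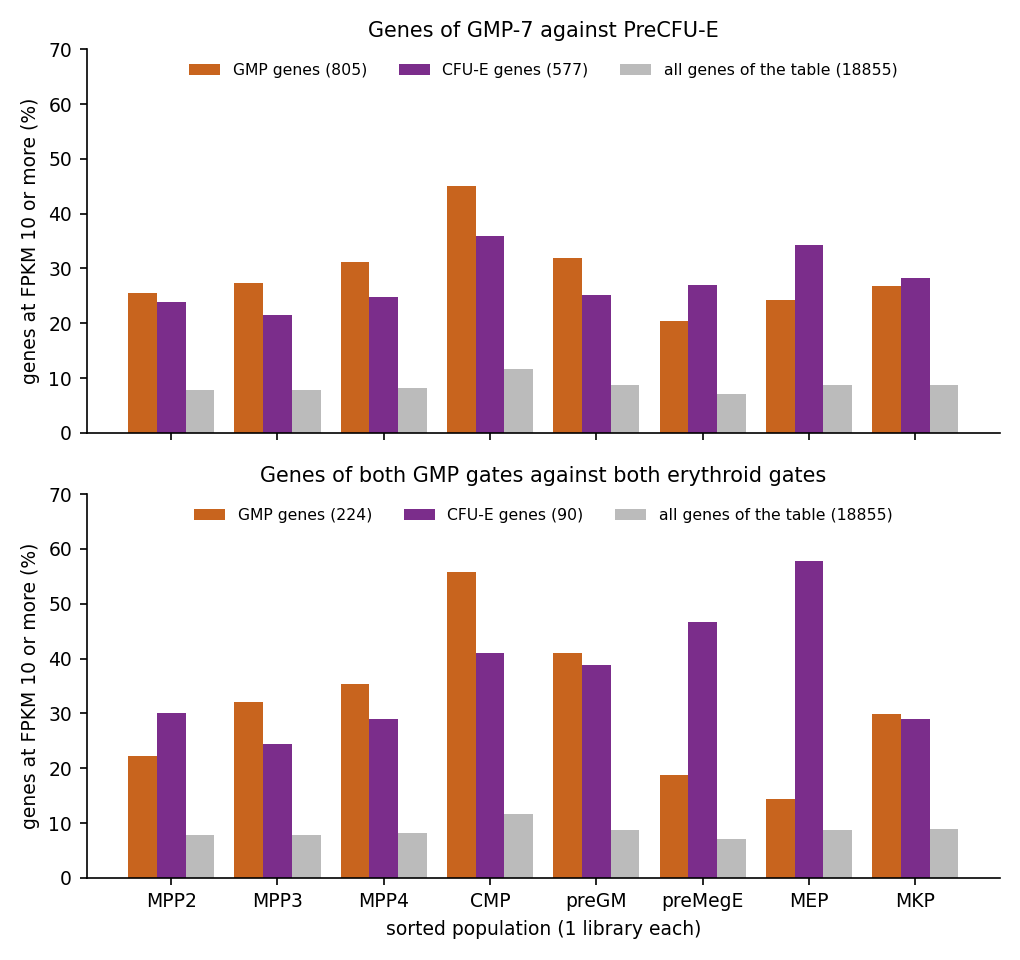
Bars give the percent of genes at FPKM 10 or more in each library, for genes chosen from GMP-7 and PreCFU-E (upper panel, 805 and 577 genes) and from both GMP gates and both erythroid gates (lower panel, 224 and 90 genes, a rule added after seeing the data), beside all genes of the table. GMP genes were most frequent in CMP in either panel (45.1% and 55.8%), and CFU-E genes in CMP above (36.0%) and in MEP below (57.8%).

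The genes of the narrower rule were set against the branch genes. Of the 224 GMP genes, 110 reached FPKM 10 in preGM or preMegE, of which 64 were preGM branch genes and 21 preMegE branch genes, beside 38.2% and 25.4% of all genes. Of the 90 CFU-E genes, 57 did so, of which 32 were preMegE branch genes and 16 preGM branch genes. Some branch genes that CMP held at high levels were among them: Arhgdib was a GMP gene, and Aplp2, a preGM branch gene, was a CFU-E gene.

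Promoters were searched for letters that the main lineage factors are known to bind. RefSeq promoters of GRCm38.p6, from 250 bases before to 50 after the start, were matched to 14850 of 18855 genes. The GATA core was searched as AGATAA, the KLF1-type CACC box as CCACACCC, and the C/EBP type as TTGCGCAA or TTGCGAAA, each on both strands, and no searched motif contains another. A GATA core stood in 10.9% of all promoters, 7.37% of those of genes at FPKM 10 in preGM or preMegE, 8.63% of preGM genes and 7.99% of preMegE genes. The CACC box was in 4.41% of all promoters, 3.96% of preGM genes and 5.40% of preMegE genes, and the C/EBP type in 0.525%, 0.424% and 1.51%. Of 30 branch genes on the lineage and sort marker lists, 22 had a promoter in the table and 4 of these had a match (Gp5, Clec12a, Il6ra and Cpox). The first 3 are shown because they are branch genes that go with different gates and whose matches lie before the start. Clec12a, an inhibitory receptor of myeloid cells, was at 10.8 FPKM in CMP and 14.3 in preGM, was listed at 0 in preMegE and stood at 0.0268 in MEP. Capitals mark the matches, with GATA cores on the other strand written TTATCT, and each sequence is the 250 bases before the start, 5′ to 3′ on the strand of the gene. They are Gp5 at chr16:30310782-30311031 (minus strand), Clec12a at chr6:129349994-129350243 (plus strand) and Il6ra at chr3:89913197-89913446 (minus strand), all in GRCm38.p6, while the FPKM values were made on mm9.
Gp5: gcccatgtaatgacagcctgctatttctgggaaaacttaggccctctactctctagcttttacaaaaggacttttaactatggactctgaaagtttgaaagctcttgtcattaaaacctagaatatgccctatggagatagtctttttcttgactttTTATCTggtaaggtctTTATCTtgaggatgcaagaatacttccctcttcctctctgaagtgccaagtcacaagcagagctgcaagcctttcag
Clec12a: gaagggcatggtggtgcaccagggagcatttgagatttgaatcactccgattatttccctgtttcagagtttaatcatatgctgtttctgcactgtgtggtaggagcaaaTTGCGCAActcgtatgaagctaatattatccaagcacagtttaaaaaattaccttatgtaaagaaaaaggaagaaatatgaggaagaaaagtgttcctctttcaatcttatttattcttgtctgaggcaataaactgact
Il6ra: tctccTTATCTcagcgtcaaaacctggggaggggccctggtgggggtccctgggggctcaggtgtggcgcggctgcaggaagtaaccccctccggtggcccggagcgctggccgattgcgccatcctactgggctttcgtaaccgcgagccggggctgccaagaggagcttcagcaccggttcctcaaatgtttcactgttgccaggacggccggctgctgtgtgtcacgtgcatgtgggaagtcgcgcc
Gp5 was a preMegE gene with GATA cores at positions -93 and -77 from the start, and Clec12a a preGM gene with a C/EBP-type match at -140. Il6ra was a preGM gene and had a GATA core at -245, so a GATA core stood before genes of either branch.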

How the data were processed

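Per the labels' protocols, bulk libraries of sorted cells were made by the method of Pan et al., which the sample descriptions call PMA-RNA-seq, and standard TruSeq kits. The authors deposited FPKM, with 1 value per gene and library. The submitters' processing notes name TopHat 1.3.3, Cufflinks 1.2.1 and mm9; filters are not given in the sources used here. Depth is unknown, so no interval for a level was computed. The single-cell tables were not used here.

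Symbols of the 18855 rows were updated through RefSeq for names only (18326 matched by accession, 256 by symbol, 164 by synonym, 109 unmatched and kept as named). Ratios used FPKM + 1 in Python 3.11.15 with pandas 2.3.3. The branch rule, the held rule (within 2-fold) and the position scale were checked on simulated data. With 1 library per population no test was made.

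Named genes were members of the sort marker, transcription factor and granule lists past the branch rule, the 10 largest ratios per direction, up to 5 members per other list with the widest range, the 5 genes each gate held most and least, the 5 farthest outside both branches, and the 3 at each side of the threshold. Further list members, such as Clec12a and Gypc, were picked with their values in view. The members and the 23 lists were chosen with earlier results of these data known. Alternatives changed the fold, FPKM minimum, pseudocount, scaling, short rows, scale of position, held rule and choice of branch genes. Some genes that these rules name are left out of the text and figures, though counts include them.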

Additional observations from a re-analysis of the deposited data

How the results depend on the processing

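The design gave 1 library per population, so depth and replicate spread could not be used to limit any value, and leaving out a library was not possible. No paired analysis was possible because no population had a second library. Counts are compared with those of the main rule within 1.5 times, positions with the 95% interval of the median over genes, which covers the choice of genes only. The differences in sign of Gata1, Cebpa, Kit and Mpo between preGM and preMegE, and their side of the 4-fold line, were the same under every pseudocount and scaling tried.

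The number of genes higher in preGM against preMegE was 868 to 577. It was 839 to 677 with libraries scaled to the same median ratio, and 738 to 761 with Snora62 left out of the library totals, a setting added once the data had been seen. The median log2 ratio of preGM over preMegE over all genes went from 0.598 to 0.451 and 0.201 under these scalings, and that of MEP over preMegE from 0.517 to 0.138 and -0.049.

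With a fold of 2, CMP held 259 of 756 preMegE genes, MEP held 308 of 1102 preGM and 210 of 756 preMegE genes, and CMP held 1 of 14 erythroid-megakaryocyte genes. With a fold of 8, CMP held 206 of 640 preGM and 84 of 387 preMegE genes, MEP held 124 and 71, and 7 erythroid-megakaryocyte genes were left, of which MEP held 4. From FPKM 5, CMP held 1 of 13 erythroid-megakaryocyte genes. From FPKM 20, CMP held 204 of 630 preGM genes (median position 0.516) and 84 of 403 preMegE genes, MEP held 77 of the latter, and 9 granulocyte-monocyte genes were left, of which CMP held 6 and MEP 0. Fewer genes pass a higher fold or FPKM minimum by construction.

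A pseudocount of 0.1 gave CMP median positions of 0.617 (preGM genes) and 0.534 (preMegE genes), and 0.184 for MEP over preGM genes. A pseudocount of 5 gave 382 preMegE genes, of which CMP held 79 and MEP 69, and CMP and MEP held 204 and 132 of 605 preGM genes. CMP positions were then 0.446 and 0.777 and that of MEP over preGM genes 0.056, CMP held 7 of 10 granulocyte-monocyte genes and MEP 4 of 8 erythroid-megakaryocyte genes. On linear FPKM the medians were 0.26 and 0.888 for CMP and 0.021 and 0.981 for MEP. With held as within 4-fold, CMP held 500 preGM genes, 253 preMegE genes and 6 of 11 erythroid-megakaryocyte genes.

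Libraries scaled to the same median ratio (over 468 genes) gave medians over preGM genes of 0.506 for CMP and 0.049 for MEP, and CMP held 1 of 14 erythroid-megakaryocyte genes. Division by the library total, at a larger common scale, lowered the FPKM minimum and pseudocount in effect, and gave 1697 preGM and 1087 preMegE genes. CMP held 769 and 419 of them (positions 0.682 and 0.459) and MEP 415 and 279. The lists then gave 22 granulocyte-monocyte and 17 erythroid-megakaryocyte genes, CMP holding 3 of the latter. With the minimum and pseudocount scaled alike, a choice made after seeing the data, CMP held 1 of 11 erythroid-megakaryocyte genes, and with Snora62 left out of the total as well, 1 of 14, and the MEP median over preGM genes was 0.036.

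Branch genes taken from GMP-7 and PreCFU-E gave CMP medians of 0.372 and 0.824 and MEP medians of 0.0 and 1.007, and MEP held 122 of 805 genes. For lineage genes of the later gates, asking for both GMP gates and both erythroid gates changed the shares at FPKM 10 to 55.8% (CMP), 41.1% (preGM) and 14.3% (MEP) of GMP genes, and to 41.1% (CMP), 38.9% (preGM), 46.7% (preMegE) and 57.8% (MEP) of CFU-E genes. The cause of these changes was not tested.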
